A study of Mus musculus with 20 samples.

Results

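Fatty acid uptake and oxidation were followed through 10 genes, Cd36, Fabp3, Cpt1a, Cpt1b, Cpt2, Acadm, Acadl, Hadha, Hadhb and Ppara, in RNA-seq of embryonic mouse hearts from which the histone H3K4 methyltransferase gene Kmt2d had been deleted. The genes were chosen by symbol, and all 10 were found among the 33495 genes of the counts table and measured in all 20 libraries. All embryos were C57BL/6, and both mutants and controls carried the Cre of their line. Mutants were Kmt2d fl/fl and controls Kmt2d fl/+, so a control also loses 1 allele in cells with Cre. Mesp1Cre, which acts in early mesodermal precursors of the heart, was represented by whole hearts at E9.0 (4 mutants and 4 controls). Tnnt2::Cre, which acts in cardiomyocytes, was represented by whole hearts at E11.5 (3 mutants and 3 controls), in which the non-myocyte cells keep Kmt2d. Mef2cAHF::Cre, which acts in anterior heart field precursors, was represented by right ventricle with outflow tract at E11.5. For this line the sample titles and the column names of the table give opposite genotypes, so the groups are called labelled mutant (3 libraries) and labelled control (3 libraries) after the titles, and under the column names every sign of a change within this line reverses.

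Long-chain fatty acids enter cells through the membrane protein CD36 and are carried in the cytosol by fatty acid binding proteins such as FABP3. They cross into mitochondria as carnitine esters, formed by CPT1 on the outer membrane and reversed by CPT2 on the inner membrane, and are then shortened in repeated turns of β-oxidation. The adult heart draws most of its energy from this pathway, whereas the embryonic heart relies largely on glucose and lactate, and the nuclear receptor PPARα drives many of the genes involved.

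The libraries held 21727258 to 28790705 counted reads for Mesp1Cre, 25001020 to 37165163 for Mef2cAHF::Cre and 35379996 to 45341870 for Tnnt2::Cre. All 15 cardiomyocyte markers were detected in every group, with summed levels of 28708 to 68164 CPM per library (CPM are counts scaled to the effective size of the library). Kmt2d itself (listed as Mll2) had a log2 fold change of -0.21 in Mesp1Cre mutants (FDR = 0.0764) and of -0.35 in Tnnt2::Cre mutants (FDR = 0.327). In the labelled Mef2cAHF::Cre mutants it was higher (0.32, FDR = 0.0359), against the direction of a deletion. FDR is the p-value of the edgeR quasi-likelihood test adjusted over all genes tested, with 0.05 as the threshold. The scaling of CPM was set over all 20 libraries together, whereas each fold change comes from the fit of its own comparison.

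Coordinates of the 10 genes are those of the table, on mm9. The uptake genes were Cd36 on chromosome 5 (chr5:17287834-17341514, minus strand) and Fabp3 on chromosome 4 (chr4:129985839-129992626, plus strand). The carnitine palmitoyltransferases were Cpt1a (chr19:3323348-3384119, plus strand), Cpt1b (chr15:89246836-89256294, minus strand) and Cpt2 (chr4:107576586-107596215, minus strand). The β-oxidation enzymes were Acadm (chr3:153585321-153607596, minus strand), Acadl (chr1:66877413-66909851, minus strand), Hadha (chr5:30444841-30481702, minus strand) and Hadhb (chr5:30481788-30511133, plus strand). The regulator Ppara lay at chr15:85565413-85633249 on the plus strand.

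Some of these counts are less certain than others because parts of the transcripts are repeated or shared. Of 100-base windows of the transcript, 94.9% for Hadhb, 86.7% for Fabp3 and 48.7% for Acadm had a copy of at least 95% identity elsewhere in the mm9 genome, and 0 windows of the other 7 genes did. In the GENCODE annotation of mm9, transcripts of the neighbouring gene Chkb cover 81.4% of the exonic bases of Cpt1b on the same strand. The opposite strand carries Gm10570 over 9.72% of the exonic bases of Fabp3 and Fam59b over 1.46% of those of Hadha. How reads were assigned in these stretches is not given in the sources used here.

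The 2 subunits of the mitochondrial trifunctional protein, which carries out the last 3 steps of long-chain β-oxidation, are encoded by Hadha and Hadhb, and the genes lie head to head. The 85 bases between their starts in the mm9 coordinates above are shown because, by these starts, both genes are read outward from this stretch (chr5:30481703-30481787, mm9, written on the plus strand). The RefSeq starts used for the promoters below differ. The RefSeq upstream windows of the 2 genes share 228 bases, so those starts lie further apart than 85 bases. The GC content of the 85 bases was 69.4%. Capitals mark the GC box, GGGCGG or its reverse complement, which occurred 2 times.
Hadha-Hadhb: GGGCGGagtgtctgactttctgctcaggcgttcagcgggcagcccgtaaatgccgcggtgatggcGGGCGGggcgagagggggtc
The 250 bases upstream of the start are shown for Cpt1a and Acadl, the 2 members with the largest difference between stages below. They are RefSeq sequences on the GRCm38 assembly, read on the strand of the gene, for Cpt1a from chr19:3323051-3323300 (plus strand) and for Acadl from chr1:66863310-66863559 (minus strand). Capitals mark the CCAAT box (CCAAT), the GC box (GGGCGG) and the core site of nuclear receptors (AGGTCA), on either strand.
Cpt1a: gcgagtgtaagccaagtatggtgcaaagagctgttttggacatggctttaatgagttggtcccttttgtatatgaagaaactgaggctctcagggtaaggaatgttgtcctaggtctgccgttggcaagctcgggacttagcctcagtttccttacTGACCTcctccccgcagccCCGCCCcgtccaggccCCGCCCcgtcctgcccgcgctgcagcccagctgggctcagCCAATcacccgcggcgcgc
Acadl: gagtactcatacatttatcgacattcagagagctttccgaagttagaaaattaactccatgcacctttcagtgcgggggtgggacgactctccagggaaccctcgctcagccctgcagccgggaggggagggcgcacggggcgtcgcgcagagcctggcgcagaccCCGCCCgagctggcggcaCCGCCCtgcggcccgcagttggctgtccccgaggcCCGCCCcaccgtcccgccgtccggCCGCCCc
Promoters were found in RefSeq for 9 members, all but Cpt1b. The GC box was present in 7 of these 9, against 32.9% of 27025 promoters of the same length. The windows of Hadha and Hadhb share 228 bases, so that a GC box there can count for both. Acadl had 4 copies, Cpt1a, Cpt2, Cd36, Hadhb and Ppara 2 each, and Hadha 1. The median GC content was 59.6% in the 9 windows and 52.0% in all promoters. The nuclear receptor core site was present in Cd36, Acadm and Cpt1a, against 13.8% of all promoters, and the CCAAT box in Cd36 and Cpt1a, against 34.5%. Matches to TCAAGGTCA (the element of estrogen-related receptors, which contains the core site), ACGTG (the core of the hypoxia response) and TATAAA were found in 0 of the 9, against 0.366%, 16.6% and 3504 of the 27025 promoters. A match describes the letters only.

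Levels of different genes were compared per length, as the FPKM deposited by the authors (fragments scaled by gene length and library total). Fabp3 was the highest member in each of the 6 groups, with 82.7 ± 14.2 FPKM in E9.0 controls (SD, n = 4), 173 ± 18.6 in E11.5 whole heart controls (SD, n = 3) and 73.9 ± 4.56 in the labelled Mef2cAHF::Cre controls (SD, n = 3). Ppara was the lowest in each group, at 0.130 ± 0.118, 0.334 ± 0.0705 and 0.399 ± 0.139 FPKM in the same controls. At E9.0 the second-highest member was Hadha (24.0 ± 1.11 FPKM), and 4 members followed with overlapping libraries: Acadm (17.0 ± 2.16), Cpt1b (15.2 ± 2.04), Hadhb (14.9 ± 1.31) and Acadl (13.2 ± 1.70). In the E11.5 whole heart controls Acadl was second with 53.7 ± 7.55 FPKM, above all libraries of Hadha (28.2 ± 2.01). The order of the members therefore differed between stages mainly at Acadl. Cpt1a was ninth of the 10 in each group, with 0.489 ± 0.539 FPKM at E9.0 and 3.31 ± 0.243 at E11.5.

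**Figure D1:**
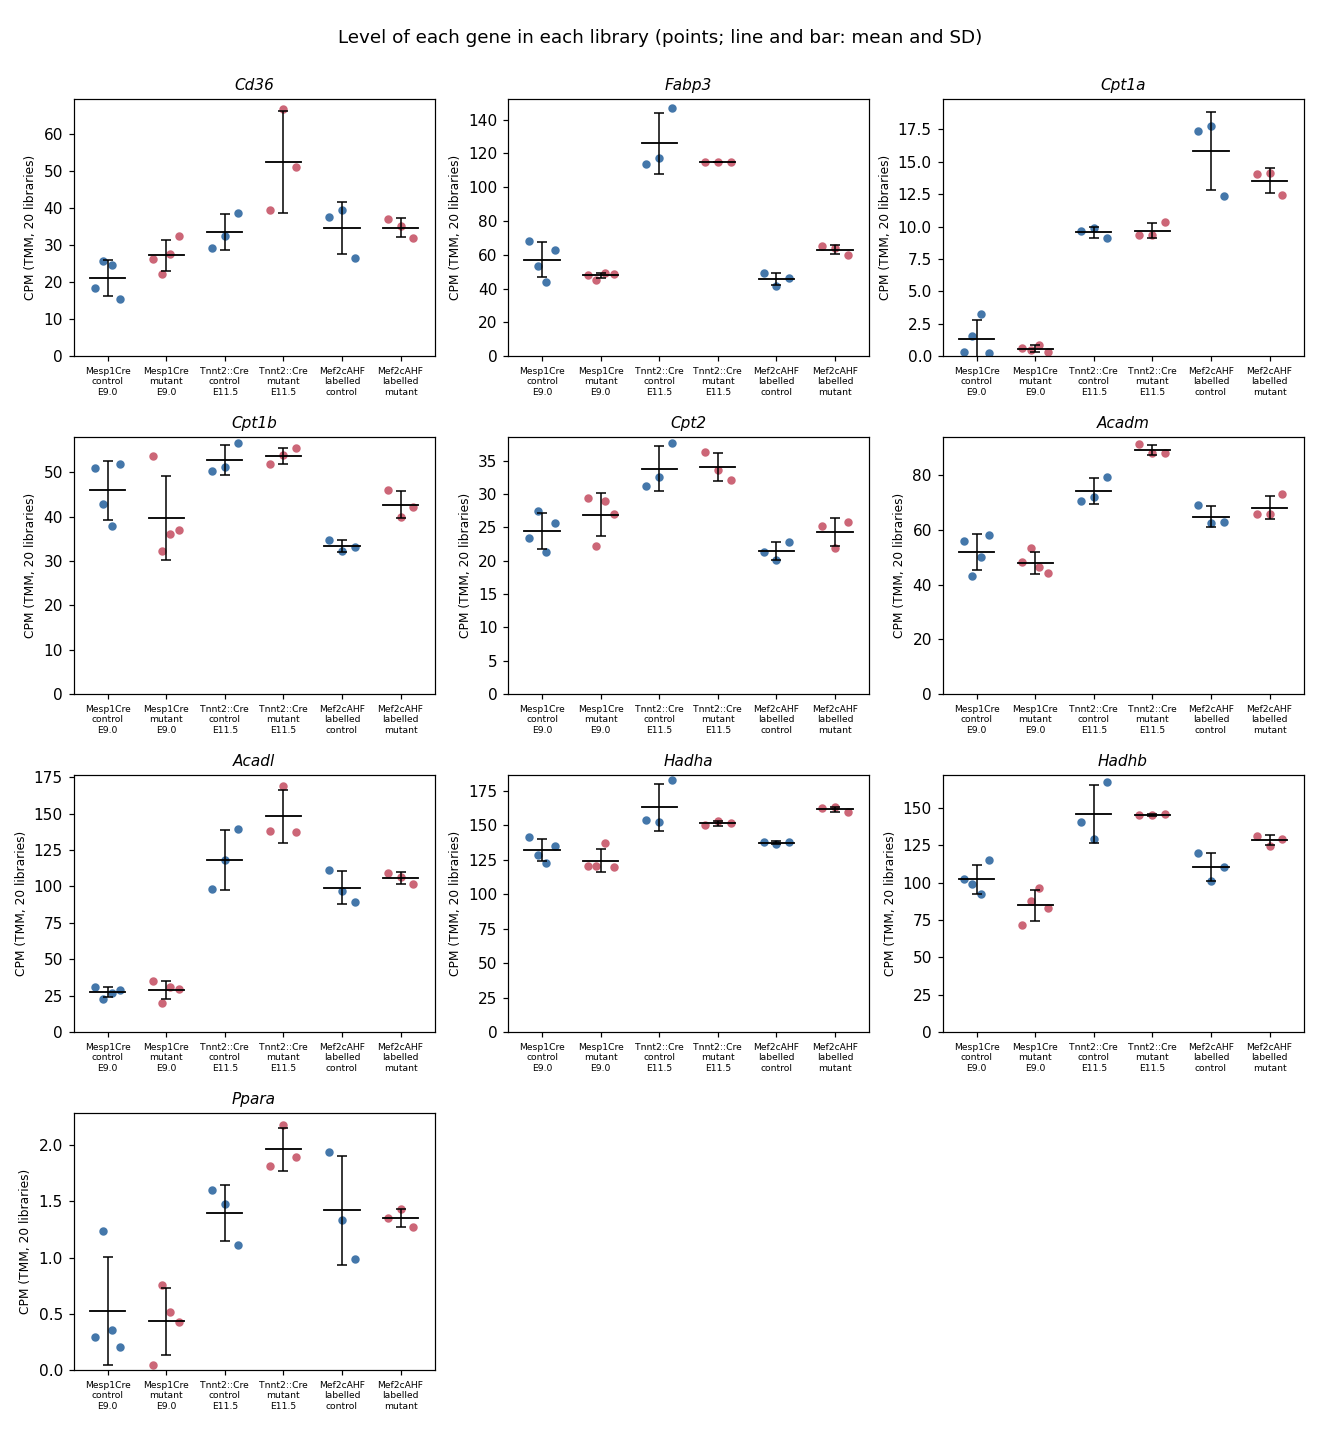
Level of each of the 10 genes in each library, in CPM (y axis, from 0), for the 6 groups (x axis). Points are libraries (blue controls, red mutants, by the sample titles), horizontal lines are means and vertical bars are SD, with lower ends cut at 0. Cpt1a, Acadm and Acadl are higher in all 12 libraries from E11.5 than in all 8 from E9.0.

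The comparison of E11.5 with E9.0 control whole hearts asks how the pathway differs between stages. Stage here cannot be told apart from Cre line, depth or any other difference between the 2 sets of libraries. Depth was 25581534 to 28790705 counted reads in the E9.0 controls and 36809972 to 45341870 in the E11.5 controls. Of the 10 members, 8 were higher at E11.5 and 0 lower, where 19.6% of the 16697 genes tested were higher and 18.8% lower. The median log2 fold change of the 10 was 0.56, beside -0.01 for all genes tested. In these bulk samples fewer cells of a type and less RNA per cell cannot be told apart. Libraries of the 2 stages did not overlap for 8 members, all above at E11.5, where 24.4% of 18391 genes were above without overlap.

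The largest difference was in Cpt1a, the CPT1 isoform that predominates in liver and in many fetal tissues. The E9.0 controls held 0.294, 1.53, 3.28 and 0.203 CPM (8, 37, 83 and 5 reads) and the E11.5 controls 9.68, 9.88 and 9.09 CPM (412, 341 and 294 reads). The E9.0 libraries were spread widely and all lay below the E11.5 libraries. The log2 fold change was 2.82 ± 0.64 (SE, FDR = 0.00471), a 7.06-fold difference. Its size rested on Mesp1Cre control 3 (83 reads), without which the log2 fold change was 3.81 (FDR = 0.000491). Cpt1b, the CPT1 isoform of heart and skeletal muscle, did not pass the test. It was at 50.9, 43.0, 38.0 and 52.0 CPM in E9.0 controls and 50.4, 51.2 and 56.6 CPM in E11.5 controls, which overlapped (log2 fold change 0.17, 95% interval -0.10 to 0.43, FDR = 0.302). Cpt2, which is shared by both routes, was higher by 0.43 (FDR = 0.0147), with 21.4 to 27.5 CPM at E9.0 and 31.3 to 37.6 CPM at E11.5.

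The balance of the CPT1 isoforms was also read within each library, where normalization cancels. Cpt1a made up 0.629%, 3.75%, 8.66% and 0.427% of the summed Cpt1a and Cpt1b FPKM in the 4 E9.0 controls, and 17.4%, 17.5% and 15.0% in the 3 E11.5 controls. All E11.5 libraries were above all E9.0 libraries (exact two-sided permutation p = 0.0571, the smallest that 3 against 4 libraries allows, 0.182 after adjustment over 20 ratio tests). Mutant whole hearts gave means of 1.59% at E9.0 and 16.5% at E11.5, with the same exact p. In the right ventricle with outflow tract the share was higher, at 35.4%, 37.7% and 29.0% in labelled controls and a mean of 25.8% ± 1.93 (SD, n = 3) in labelled mutants. The 2 labelled groups did not overlap, but 3 against 3 libraries cannot go below p = 0.1, which was the exact value (0.182 adjusted).

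Of the 4 β-oxidation enzymes, Acadl had the largest change. This long-chain acyl-CoA dehydrogenase gene was at 31.3, 22.9, 26.7 and 29.2 CPM in E9.0 controls and at 98.1, 118 and 139 CPM in E11.5 controls. All E11.5 libraries were far above all E9.0 libraries, and the log2 fold change was 2.07 ± 0.13 (SE, FDR = 1.51e-06). Acadm, the medium-chain enzyme, was at 55.7, 43.3, 50.2 and 58.0 CPM against 70.6, 72.0 and 79.4 CPM, a smaller difference without overlap (0.48 ± 0.11, FDR = 0.00440). The ratio of Acadl to Acadm FPKM was 0.777 ± 0.0349 at E9.0 (SD, n = 4) and 2.33 ± 0.272 at E11.5 (SD, n = 3), with an exact permutation p of 0.0571 (0.182 adjusted). Hadha rose by 0.27 ± 0.09 (SE, FDR = 0.0255) and Hadhb by 0.48 ± 0.10 (SE, FDR = 0.00324). Hadha was at 123 to 141 CPM in the E9.0 controls and 153 to 183 CPM in the E11.5 controls, and Hadhb at 92.6 to 115 and 129.5 to 167 CPM. The call for Hadha was lost when Mesp1Cre control 2 (0.26) or 3 (0.25) was left out.

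Of the uptake genes, Fabp3 was at 68.2, 53.6, 44.2 and 62.8 CPM in E9.0 controls and at 114, 118 and 147 CPM in E11.5 controls (log2 fold change 1.11 ± 0.14, SE, FDR = 0.000114). Cd36 was at 18.4, 25.7, 24.7 and 15.4 CPM against 29.2, 32.3 and 38.7 CPM (0.63 ± 0.18, SE, FDR = 0.0143). Neither gene overlapped between stages. Without Tnnt2::Cre control 3, which was the highest E11.5 control for 8 of the 10 members, Cd36 (0.52), Cpt2 (0.36) and Hadha (0.19) no longer passed the test and 5 members were called. Ppara was at 8, 30, 9 and 5 reads in E9.0 controls and 68, 51 and 36 reads in E11.5 controls, and its difference did not pass the test (1.39 ± 0.60, SE, FDR = 0.0909). Its E9.0 and E11.5 control libraries overlapped in CPM through Mesp1Cre control 2 (1.24 CPM), and without that library the difference passed (2.25).

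Mutant whole hearts gave the same comparison in libraries that the controls do not share, with the same confounding of stage with line and depth. There 8 of the 10 members were higher at E11.5, where 18.8% of 16617 genes were higher and 17.1% lower. Libraries did not overlap for 9 members, all above at E11.5, where 23.1% of 18391 genes were above without overlap. Cpt1a (4.06 ± 0.33, SE), Acadl (2.34), Ppara (2.14), Fabp3 (1.25), Cd36 (0.93), Acadm (0.88), Hadhb (0.76) and Hadha (0.27) passed the test, and Cpt1b (0.42, FDR = 0.0677) and Cpt2 (0.32, FDR = 0.0695) did not. Cpt1a was at 0.633, 0.454, 0.896 and 0.311 CPM in the E9.0 mutants and 9.37, 9.33 and 10.4 CPM in the E11.5 mutants. Over all 20 libraries, including right ventricle with outflow tract, 3 members did not overlap between stages, all above at E11.5, where 5.33% of 18391 genes were above without overlap. Cpt1a ran from 0.203 to 3.28 CPM at E9.0 and from 9.09 to 17.8 at E11.5, Acadl from 20.02 to 34.8 and from 89.5 to 169, and Acadm from 43.3 to 58.0 and from 62.6 to 91.3.

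**Figure D2:**
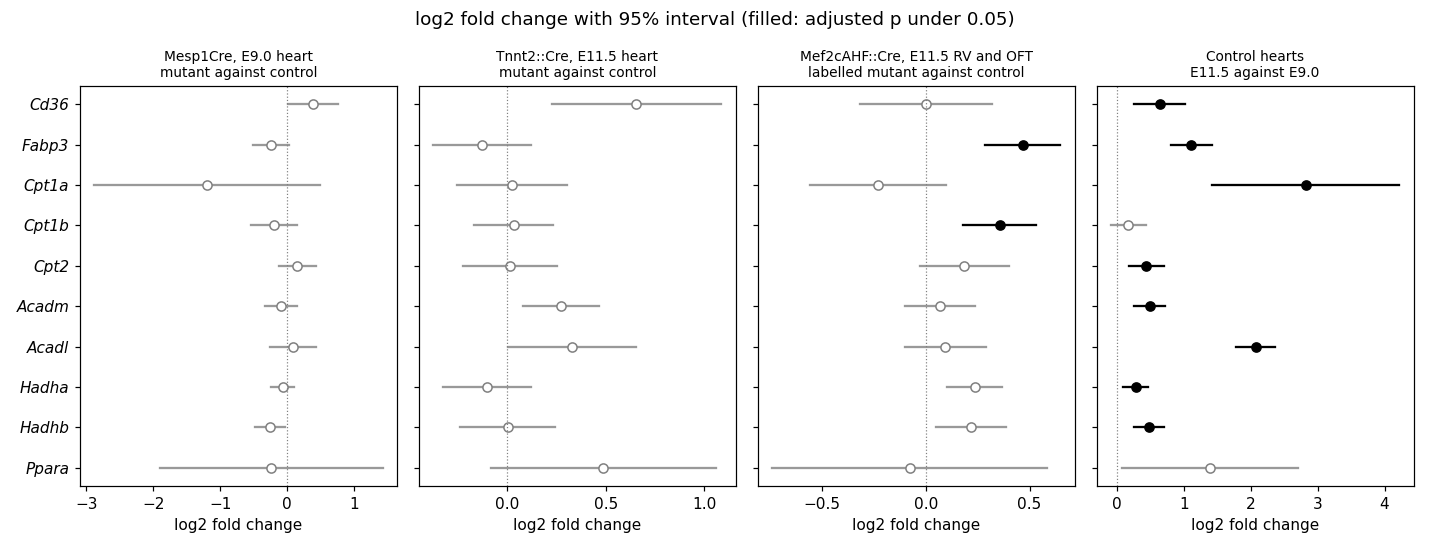
Log2 fold change of each gene (x axis, scale differing between panels) in 4 comparisons, with 95% intervals as lines. Filled points passed the edgeR test at FDR under 0.05: 8 genes between stages, Fabp3 and Cpt1b in the Mef2cAHF::Cre line by the sample titles, and 0 in the Mesp1Cre and Tnnt2::Cre lines.

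Markers of other cell types also differed between the control stages. The summed level of 11 erythroid markers was 5436 to 17947 CPM in E9.0 controls and 104026 to 160810 CPM in E11.5 controls, and all 11 were called higher. All 8 markers of megakaryocytes and platelets (65.9 to 90.8 against 269 to 489 CPM) and all 8 of the epicardium (26.1 to 79.1 against 231 to 269 CPM) were called higher too. Of 8 macrophage markers tested 6 were called higher, and the summed level of the list was 5.81 to 10.7 CPM at E9.0, with C1qa and C1qc at 0 in all 4 libraries, and 23.7 to 32.8 CPM at E11.5. Of 15 cardiomyocyte markers 6 were higher and 4 lower. Of 10 endothelial and endocardial markers 5 were higher and 1 lower (552 to 654 against 653 to 725 CPM), and of 15 hypoxia-induced genes 1 was higher and 7 lower (3665 to 4426 against 2216 to 3017 CPM). Their part in the differences of the members was not tested.

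The other genes of the pathway were followed in lists of 82 genes, of which 78 could be tested between stages. At E11.5, 34 (43.6%) were higher and 10 (12.8%) lower, beside the 19.6% and 18.8% of all genes, and their median log2 fold change was 0.41. Of 16 further genes of mitochondrial β-oxidation, 9 were higher (Acaa2, Acadsb, Acadvl, Dci, Echs1, Etfa, Etfdh, Hadh and Peci) and 0 lower. Of 11 peroxisomal genes, 7 were higher and 1, the fatty acid transporter Abcd2, was lower, from 7.99 ± 1.49 to 2.31 ± 0.165 CPM (-1.82, FDR = 0.000106). The peroxisomal bifunctional enzyme Ehhadh rose by 1.91 ± 0.32 (SE, FDR = 0.000686), from 0.973 ± 0.230 to 3.74 ± 0.164 CPM.

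Of 14 genes tested among PPAR-responsive and lipid storage genes, 7 were higher and 1 lower between stages. Ucp2, a mitochondrial carrier, rose by 2.93 ± 0.14 (SE, FDR = 1.59e-07) from 40.2 ± 5.31 to 313 ± 56.3 CPM, and the acyl-CoA thioesterase Acot1 by 2.05 ± 0.28 (SE, FDR = 0.000208). Dgat2, which makes triglycerides, was lower (-1.24, FDR = 0.00121). The binding protein gene Fabp7 belongs to the list for uptake, binding and activation, which is counted below. It had 0 to 4 reads per library at E9.0 and 26 to 35 at E11.5 (FDR = 0.00294). Its fold change is not given because it depends on the handling of counts near 0. Among 18 regulators 5 were higher (Acacb, Lpin1, Rxra, Rxrb and Sirt3) and 5 lower (Acaca, Esrrg, Ncor1, Ppargc1a and Prkaa2). Of the lower ones, the estrogen-related receptor gene Esrrg changed by -0.90 (FDR = 0.000129) and Acaca by -0.83 (FDR = 2.24e-05). Acaca and Acacb, which differed in direction, both encode enzymes that make malonyl-CoA, the inhibitor of CPT1. The acyl-CoA synthetase Acsl1 was lower (-0.89, FDR = 0.00196), among 3 higher and 2 lower of the 14 genes tested for uptake, binding and activation. Of 5 further carnitine genes tested, 3 were higher (Cpt1c, Crat and Slc25a20) and 1 lower (Crot).

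**Figure D3:**
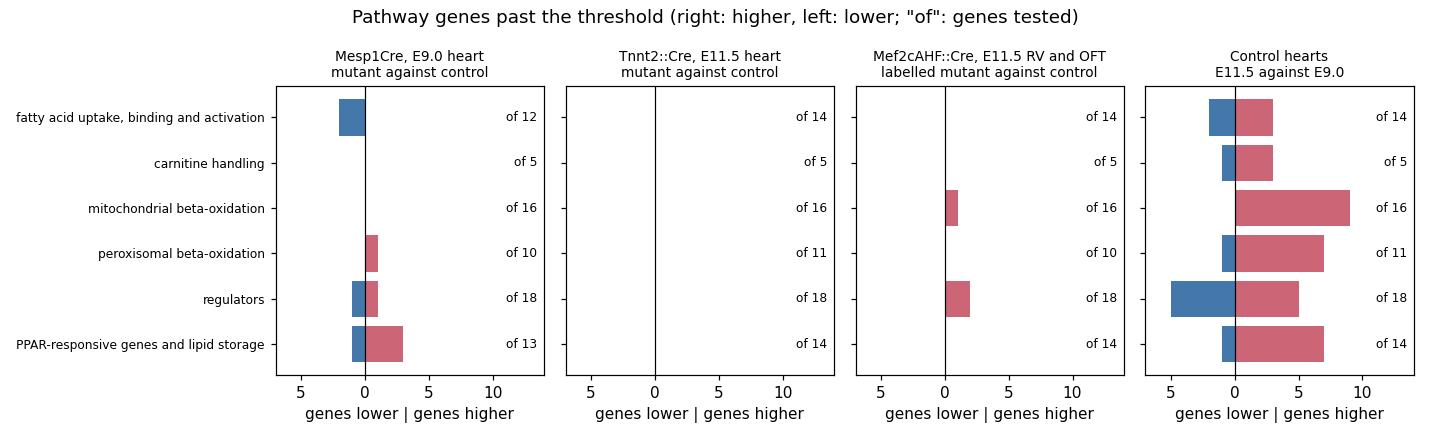
Number of pathway genes past the edgeR test at FDR under 0.05 (x axis; red bars to the right are higher, blue bars to the left are lower) in 6 lists (y axis), with the number tested in each list at the right of each panel. Between stages 34 of 78 genes were higher and 10 lower, and in the Tnnt2::Cre line 0 were called.

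**Figure D4:**
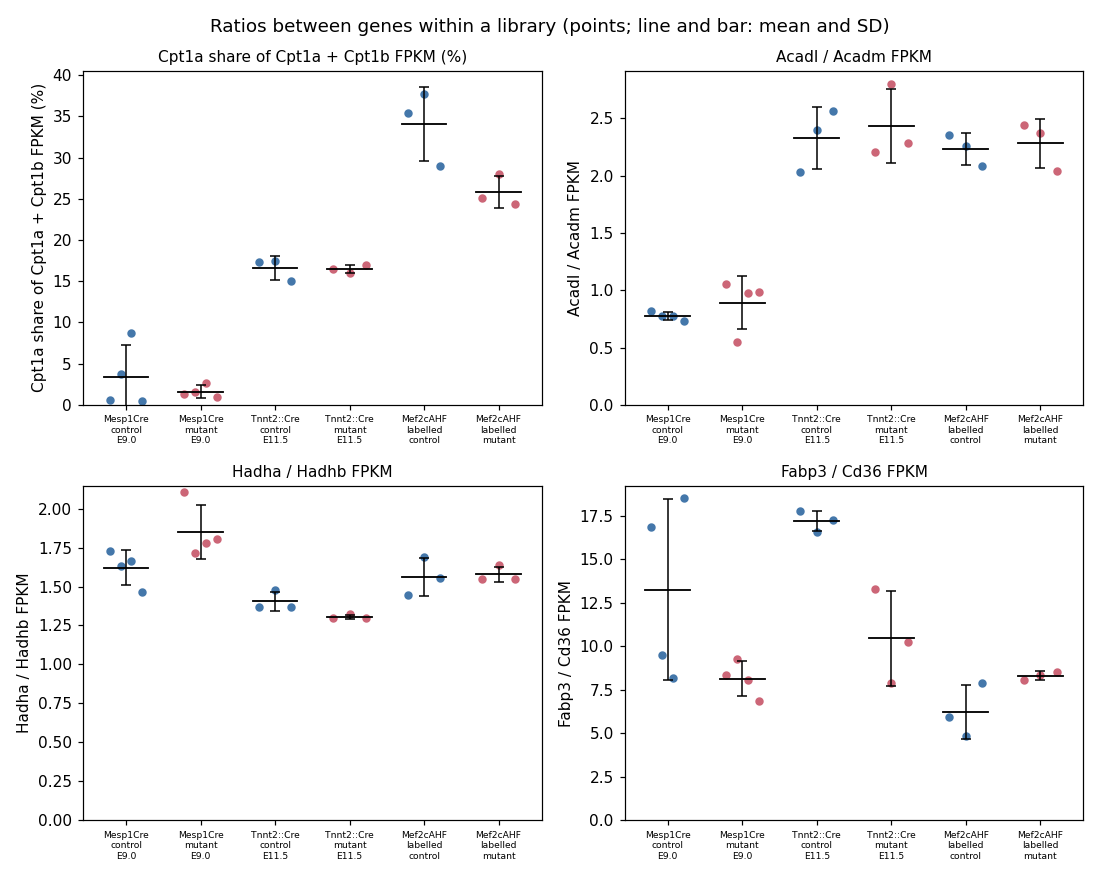
Ratios of FPKM between genes within each library (y axes, from 0), by group (x axis), with points for libraries, lines for means and bars for SD. The Cpt1a share and the ratio of Acadl to Acadm are higher in all E11.5 libraries than in all E9.0 libraries.

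In the Mesp1Cre line, which asks what loss of Kmt2d from early mesoderm does at E9.0, 0 of the 10 members passed the test, where 6.17% of 15883 genes were higher and 5.29% lower. The edgeR test gave an unadjusted p under 0.05 for 2 members, where 26.9% of all genes had one, and DESeq2 called 0. The median log2 fold change of the 10 was -0.14, beside 0.00 for all genes. Cd36 was at 26.3, 22.2, 27.7 and 32.4 CPM in mutants and 18.4, 25.7, 24.7 and 15.4 CPM in controls, which overlapped (0.38 ± 0.17, SE, FDR = 0.177). Hadhb was at 71.9, 87.8, 96.5 and 82.9 CPM in mutants and 102, 98.9, 92.6 and 115 CPM in controls (-0.25 ± 0.10, SE, FDR = 0.134). The mutant libraries were mostly the lower ones and overlapped the controls through mutant 3. In the fit of all 6 groups Hadhb passed (-0.27, FDR = 0.0455). No member was without overlap, whereas 16.3% of 18391 genes were.

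For the remaining members of this line the 95% interval of the log2 fold change is given. It was -0.23 to 0.10 for Hadha, -0.33 to 0.15 for Acadm, -0.12 to 0.43 for Cpt2, -0.26 to 0.44 for Acadl, -0.51 to 0.03 for Fabp3 and -0.53 to 0.15 for Cpt1b. For Cpt1a (-2.88 to 0.49) and Ppara (-1.90 to 1.43) the intervals were wide. Cpt1a had 8 to 21 reads per mutant library and 5 to 83 per control library, and Ppara 1 to 20 and 5 to 30. The mutants of this line differed from controls in other measures. Of 15 hypoxia-induced genes 14 were called higher, with summed levels of 6780 to 8343 CPM in mutants and 3665 to 4426 CPM in controls. Of 11 erythroid markers 5 were called lower (1936 to 7538 against 5436 to 17947 CPM), and endothelial markers summed to 734 to 846 against 552 to 654 CPM. Of 7 megakaryocyte and platelet markers tested 3 were called higher and 0 lower, with the list summing to 115 to 356 against 65.9 to 90.8 CPM. Of 15 cardiomyocyte markers 2 were called higher and 3 lower. Their part in the values of the members was not tested.

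Among 74 other pathway genes tested in this line 5 (6.76%) were higher and 4 (5.41%) lower, shares near the 6.17% and 5.29% of all genes, and 1 was called with erythroid content as a covariate. The higher genes were 2310016C08Rik (now named Hilpda, a lipid droplet protein gene; 1.14 ± 0.21, SE, FDR = 0.00443), the PPAR gene Ppard (0.84, FDR = 0.0476), Pdk4, which restrains glucose oxidation (0.65, FDR = 0.0260), Dgat2 (0.59, FDR = 0.0473) and the peroxisomal thiolase Acaa1a (0.58, FDR = 0.0485). The lower genes were Ucp2 (-1.05, FDR = 0.00491), the acyl-CoA synthetase Acsl5 (-0.58, FDR = 0.0193), the acyl-CoA binding protein gene Dbi (-0.56, FDR = 0.0116) and Acaca (-0.41, FDR = 0.00626). Of the 16 further genes of mitochondrial β-oxidation 0 were called, and 1 had an unadjusted p under 0.05, as did 26.9% of all 15883 genes. Leaving out 1 library at a time gave 4 to 9 calls, with 4 without mutant 1 and 5 without control 1, control 2, control 4 or mutant 4. The part of the hypoxia-induced genes and of the cell-type markers above in these calls was not tested beyond the erythroid covariate.

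In the Tnnt2::Cre line, which asks what loss of Kmt2d from cardiomyocytes does at E11.5, 0 of the 10 members passed the test, where 0.0763% of 17045 genes were higher and 0.217% lower. The median log2 fold change was 0.03. Unadjusted p was under 0.05 for 3 members, Cd36, Acadm and Acadl, all with higher estimates in mutants, where 11.9% of all genes had one, and DESeq2 called 1. Cd36 was at 39.4, 66.7 and 51.1 CPM in mutants and 29.2, 32.3 and 38.7 CPM in controls (0.66 ± 0.19, SE, FDR = 0.252). The mutants lay above the controls, by little for mutant 1, and Cd36 passed the test when mutant 1 was left out (0.83) and with DESeq2 (0.65, adjusted p = 0.0301). With erythroid content as a covariate the difference was 0.24 (FDR = 0.573). Acadm was at 91.3, 88.1 and 88.0 CPM in mutants and 70.6, 72.0 and 79.4 CPM in controls, without overlap (0.27 ± 0.09, SE, FDR = 0.283). Acadl was at 138, 169 and 138 CPM in mutants and 98.1, 118 and 139 CPM in controls, where control 3 overlapped the mutants (0.33 ± 0.14, SE, FDR = 0.417).

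Ppara was also without overlap in this line, at 72, 83 and 68 reads in mutants and 68, 51 and 36 reads in controls, or 1.81, 2.18 and 1.90 against 1.60, 1.48 and 1.11 CPM (0.49, FDR = 0.490). The members without overlap were thus 3, all above in mutants, where 8.72% of 18391 genes were above without overlap. For the other 6 members the 95% intervals reached from -0.38 to 0.30 at most. Fabp3 was at 115 CPM in each mutant and at 114, 118 and 147 CPM in controls, and Hadhb at 145, 145 and 146 CPM in mutants and 141, 129.5 and 167 CPM in controls, so that control 3 was the highest library for both. Of 78 pathway genes 0 were called by edgeR, and 19 had an unadjusted p under 0.05, where 11.9% of all 17045 genes had one. DESeq2 called 2 of them, and the share of all genes called by DESeq2 is not given here. The summed erythroid level was 19369 to 132731 CPM in mutants and 104026 to 160810 CPM in controls, and macrophage markers summed to 31.1 to 45.7 against 23.7 to 32.8 CPM. Epicardial markers summed to 247 to 311 against 231 to 269 CPM, with 8 of 8 estimates higher and 0 called. Markers of megakaryocytes and platelets summed to 244 to 1054 against 269 to 489 CPM, with 7 of 8 estimates higher and 0 called. Of 15 hypoxia-induced genes 0 were called by edgeR (10 had an unadjusted p under 0.05), with summed levels of 2985 to 4622 CPM in mutants and 2216 to 3017 CPM in controls. Their part in the values of the members was not tested.

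In the Mef2cAHF::Cre line, which asks the same of anterior heart field derivatives, 2 of the 10 members passed the test. By the titles both were higher in mutants, where 1.81% of 16920 genes were higher and 1.04% lower, and by the column names both were lower (the mirror of the same values). Fabp3 was at 65.4, 64.1 and 59.8 CPM in labelled mutants and 49.2, 41.7 and 46.1 CPM in labelled controls (0.47 ± 0.08, SE, FDR = 0.0228), and by the column names the change was -0.47. Cpt1b was at 46.1, 39.9 and 42.3 CPM in labelled mutants and 34.8, 32.2 and 33.3 CPM in labelled controls (0.36 ± 0.08, SE, FDR = 0.0485), and by the column names -0.36. The groups did not overlap for either gene.

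Both subunits of the trifunctional protein were also without overlap in this line but did not pass the test. Hadha was at 163, 163 and 159.7 CPM in labelled mutants and 138, 136 and 138 CPM in labelled controls (0.24 ± 0.06, SE, FDR = 0.0700), and Hadhb at 132, 125 and 129 against 119.9, 101 and 111 CPM (0.22 ± 0.08, SE, FDR = 0.167). The members without overlap were 4, all above in labelled mutants, where 12.1% of 18391 genes were above without overlap. The 95% interval was -0.32 to 0.32 for Cd36, -0.10 to 0.24 for Acadm and -0.10 to 0.29 for Acadl. Cpt1a (-0.23, FDR = 0.458) and Ppara (-0.08, FDR = 0.930) were the 2 members with a lower estimate, at 12.4 to 14.2 against 12.4 to 17.8 CPM for Cpt1a.

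The calls of this line were not stable. Left out in turn, each labelled mutant left 0 members called and each labelled control left 1, so that Cpt1b was called in 0 of 6 such fits and Fabp3 in 3. The log2 fold changes in these 6 fits were 0.41 to 0.52 for Fabp3 and 0.30 to 0.40 for Cpt1b. With erythroid content as a covariate neither passed (Fabp3 0.33, FDR = 0.138; Cpt1b 0.31, FDR = 0.213), and neither did in the fit of all 6 groups or on log2 FPKM. The summed erythroid level was 25048 to 47402 CPM in labelled mutants and 7267 to 32061 CPM in labelled controls, with 2 of 11 markers called higher. Of 8 megakaryocyte and platelet markers 6 were called lower (92.2 to 173 against 357 to 816 CPM), and hypoxia-induced genes summed to 2583 to 2651 against 2790 to 4385 CPM with 2 of 15 called lower. Cardiomyocyte markers summed to 35933 to 41945 CPM in labelled mutants and 28708 to 36984 CPM in labelled controls. Of the 15, 12 had a higher and 3 a lower estimate in labelled mutants, with a median log2 fold change of 0.24. Tnni3 was called higher, and 7 of the 15 had an unadjusted edgeR p under 0.05, as did 17.9% of all genes. Macrophage markers summed to 23.8 to 30.2 against 32.6 to 42.4 CPM with 1 of 9 called lower, and endothelial and endocardial markers to 681 to 710.5 against 611 to 661 CPM with 1 of 10 called higher. Of 8 epicardial markers 0 were called, and 7 had a lower and 1 a higher estimate. Their sums were 214 to 222 against 211 to 263 CPM. The part of all these marker lists in the 2 calls was not tested beyond the erythroid fit.

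Among 77 other pathway genes in this line 3 (3.90%) were called higher in labelled mutants and 0 lower. Of all 16920 genes tested, 1.81% were higher and 1.04% lower. By the column names the 3 were lower. They were Esrrb, an estrogen-related receptor gene (0.92, FDR = 0.0365), Acacb, which makes malonyl-CoA at mitochondria (0.81, FDR = 0.00822), and the short-chain dehydrogenase gene Hadh (0.34, FDR = 0.0373). Hadh was at 56.1 ± 0.331 CPM in labelled mutants and 44.2 ± 2.72 CPM in labelled controls (SD, n = 3). Leaving out 1 library at a time gave 0 to 6 calls, with 0 without labelled mutant 1, 1 without labelled mutant 2 or 3 and 6 without labelled control 2.

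The changes of the lines were tested against each other as interactions. Of the 10 members 0 differed between Mesp1Cre and Tnnt2::Cre (1.23% of 18391 genes had a higher and 1.81% a lower change in Mesp1Cre, and 1 member had an unadjusted p under 0.05, as did 19.2% of genes) and 0 between Mef2cAHF::Cre and Tnnt2::Cre (1.63% higher and 1.56% lower, and 3 members had an unadjusted p under 0.05, as did 15.3% of genes). For Fabp3 the second difference was 0.60 (FDR = 0.0646) and passed with DESeq2 (0.59, adjusted p = 0.0263), and by the column names it was -0.33 and did not pass. For Acadm the first difference was -0.38 (95% interval -0.65 to -0.10, FDR = 0.118). The 2 tests share the Tnnt2::Cre libraries.

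The E11.5 tissues were also set side by side as labelled controls, without a test because tissue and line cannot be told apart. Right ventricle with outflow tract had 15.9 ± 3.01 CPM of Cpt1a and whole heart 9.55 ± 0.408 CPM (SD, n = 3 each). Fabp3 was at 45.7 ± 3.75 CPM in right ventricle with outflow tract and 126 ± 18.0 CPM in whole heart. Cpt1a was above, and Cpt1b, Cpt2, Fabp3, Acadm, Hadha and Hadhb below, whole heart in every library, where 51.1% of genes did not overlap, 24.7% above and 26.4% below. With the labelled mutants, whose libraries are controls by the column names, in place of the labelled controls, Fabp3 (63.1 ± 2.96 CPM) and Cpt1b (42.7 ± 3.12 CPM) were still below the whole heart controls in every library, as was Cpt2, and Hadha (162 ± 1.80 against 163 ± 17.1 CPM), Acadm and Hadhb were not. Cpt1a was above in every library under this reading too, where 49.4% of genes did not overlap, 23.6% above and 25.8% below.

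Across the 20 libraries, which differ in stage, line and depth, the log2 CPM of Hadha and Hadhb had a Pearson correlation of 0.90, Acadm and Acadl of 0.90, and Cpt1a and Cpt1b of 0.00. Of 9179 well-expressed genes (mean log2 CPM 3 or more), the 3 most like Fabp3 were Serpine2 (0.96), Ndufa4 (0.96) and Atp5a1 (0.95). Those most like Cpt1b were Jkamp (0.88), Tnni1 (0.84) and Apoa1bp (0.83). Cd36 was most like Cd63 (0.89), 2810055F11Rik (0.87) and Commd3 (0.87), Hadha most like Tgm2 (0.93), Gsn (0.92) and Usp20 (0.91), and Ppara most like Trmt2b (0.91), Lhfp (0.89) and Tmem43 (0.88). These are descriptions of 20 libraries with the stages in them.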

How the data were processed

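Gene expression was measured by RNA-seq in 20 libraries from hearts of mouse embryos. The authors aligned the reads to mm9 (the submitters' processing notes name TopHat2 2.0.8b), and deposited unnormalized counts per gene. The study's methods name featureCounts for assigning reads to genes, whereas the deposited table is labelled as computed by USeq, and which of them made the counts is not given in the sources used here. Beside each count the authors deposited an FPKM computed with USeq, which scales by gene length and library total. The authors also deposited 20 columns of variance-corrected counts on a log2 scale made by USeq, which were not used. Whether counting used strand is not given in the sources used here. The labels and the paper name different library kits, and 1 protocol field puts every heart at E11.5 although the Mesp1Cre labels say E9.0. Labels do not say that replicates came from separate litters, so p-values measure the spread between these libraries.

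Groups follow titles and genotypes of the labels. Counts were fitted in R 4.3.3 with edgeR 4.0.16, each comparison by itself: filterByExpr, TMM, quasi-likelihood F test, and Benjamini-Hochberg adjustment over all genes tested with a threshold of 0.05. The interactions and the CPM values come from 1 fit of all 20 libraries. The study used USeq for its tests, for which edgeR stands in. The SE is the size of the log2 fold change divided by the square root of F, and 95% intervals use it with the degrees of freedom of the test. Within-library FPKM ratios were compared by exact two-sided permutation (scipy 1.17.1). Depth was 21727258 to 45341870 counts per library. The edgeR steps were run on simulated counts, with changes placed only in genes of higher mean count. That run does not cover members with few reads, such as Cpt1a and Ppara at E9.0.

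The 10 genes, the pathway lists of 82 genes, the marker lists and the tests were chosen with earlier results of these data known. All 10 members are named, and of the pathway lists the 5 largest rises and 5 largest falls past the threshold in each comparison. Further called genes were named once their values were known. A gene that this rule would name is not reported here. Eci1, Eci2 and Hilpda go by Dci, Peci and 2310016C08Rik in the table, and 1 erythroid marker, Ahsp, was not found. Alternatives were DESeq2 1.42.0 and its size factors, no filter, limma 3.58.1 on log2(FPKM + 0.1) and log2(FPKM + 1), the 6-group fit, a replicate block, erythroid content as a covariate, the column-name genotypes, and each library left out. Copies were sought with BLAST+ 2.17.0 in 100-base windows every 50 bases. Promoters are RefSeq sequences on GRCm38, given for 9 members.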

Additional observations from a re-analysis of the deposited data

Results flagged for a closer look

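Dixon's test was applied to each member in the groups of 4 libraries, the Mesp1Cre mutants and the Mesp1Cre controls. These were 20 tests in all, of which chance marks about 1 in 20, and tests of the same group share its libraries. It marked 2 single libraries as far from the others of their group. Hadha in Mesp1Cre mutant 3 was at 137 CPM (3216 reads), whereas the other 3 mutants lay between 119.5 and 121 CPM. The gap was 0.926 of the range of the group. Ppara in Mesp1Cre control 2 was at 1.24 CPM (30 reads), whereas the other 3 controls lay between 0.203 and 0.356 CPM, a gap of 0.852 of the range.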

How the results depend on the processing

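Counts of called members in the Mesp1Cre comparison were 0 in all alternatives but the 6-group fit (1), and the pathway count of 9 became 16 in the 6-group fit, 1 with erythroid content as a covariate and 4 to 9 with 1 library left out. In the Mef2cAHF::Cre comparison the 2 called members became 0 on both FPKM scales, in the 6-group fit and with the erythroid covariate, 1 with the replicate block and 0 to 1 with 1 library left out. Its 3 pathway genes became 8 with DESeq2, 9 without the expression filter, 0 on both FPKM scales and in the 6-group fit, 1 with the erythroid covariate and 0 to 6 with 1 library left out. In the Tnnt2::Cre comparison DESeq2 called 1 member and 2 pathway genes, the fit without a filter 1 pathway gene and the erythroid covariate 1, and leaving out 1 library gave 0 to 1 members and 0 to 5 pathway genes. Between stages 5 to 8 members were called with 1 library left out and 7 to 9 under the other alternatives. The interaction of Mef2cAHF::Cre with Tnnt2::Cre called 1 member with DESeq2 and 1 without the filter, and both interactions called 0 to 1 with 1 library left out. How many of all genes each alternative called is not given here. These counts therefore cannot be set against a change in calls over all genes. The cause of these changes was not tested.

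Directions of small changes reversed as follows. On log2(FPKM + 0.1) and log2(FPKM + 1), where the median of all genes moved by 0.15 (Mesp1Cre), -0.13 (Mef2cAHF::Cre), 0.11 (Tnnt2::Cre) and -0.23 (Mef2cAHF::Cre against Tnnt2::Cre) on the first scale, Mesp1Cre gave Acadm 0.071 and 0.067 and Hadha 0.091 and 0.088. Mef2cAHF::Cre gave Cd36 -0.11 and -0.11, Acadm -0.064 and -0.062 and Acadl -0.034 and -0.034. Tnnt2::Cre gave Hadha 0.016 and 0.015, and the interaction of Mef2cAHF::Cre gave Cpt2 -0.082 and -0.077 and Hadhb -0.037 and -0.036. With the erythroid covariate Mesp1Cre gave Cpt2 -0.0050, Acadm 0.044 and Acadl -0.073, and Tnnt2::Cre gave Cpt1b -0.022 and Hadhb -0.053. Hadhb in Tnnt2::Cre was -0.0034 with DESeq2 size factors, -0.0041 with DESeq2 and -0.0027 in the 6-group fit, and Cd36 in Mef2cAHF::Cre was -0.0037 without the filter. By the column names the Mef2cAHF::Cre changes were Cpt1a 0.23, Cpt1b -0.36, Cpt2 -0.19, Fabp3 -0.47, Cd36 -0.0019, Acadm -0.070, Acadl -0.095, Hadha -0.24, Hadhb -0.22 and Ppara 0.078, and the differences from Tnnt2::Cre were Cpt1a 0.21, Cpt1b -0.38, Cpt2 -0.20, Fabp3 -0.33, Hadha -0.13 and Hadhb -0.21. With 1 library left out, signs changed for Cd36 (-0.15 to 0.11) and Ppara (-0.28 to 0.21) in Mef2cAHF::Cre, for Cpt1a (-0.029 to 0.051), Cpt1b (-0.0031 to 0.078), Cpt2 (-0.042 to 0.091) and Hadhb (-0.075 to 0.10) in Tnnt2::Cre, for Ppara in Mesp1Cre (-0.63 to 0.63), and for Hadha (-0.067 to 0.068) and Ppara (-1.14 to 0.12) in the interaction of Mesp1Cre with Tnnt2::Cre. The difference of Cpt1a between stages kept its direction in every alternative.

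The labels do not say that same-numbered libraries share a litter or batch. In Mesp1Cre their sample names also share a further number that is not explained, and pairing was not assumed. Correlations of their deviations from group means were -0.03 to 0.09 in Mesp1Cre, -0.01 to 0.18 in Mef2cAHF::Cre, -0.04 to 0.06 in Tnnt2::Cre and -0.11 to -0.06 between stages. With the replicate block, Cpt1b in Mef2cAHF::Cre (0.35, FDR = 0.0563) and Hadha between stages (0.29, FDR = 0.0815) were no longer called, and no other call of a member changed. Between stages the block joined libraries of different lines and ages by their number alone, so it says nothing about litters there. The lowest counts were those of Cpt1a and Ppara at E9.0, with 5 to 83 and 1 to 30 reads per library, and how far depth or differences between libraries set their error was not tested.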
